A study of Homo sapiens with 6 samples.

Results

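Peaks lying between convergent protein-coding genes were taken from a list of polyadenylation sites of IMR-32, an established human neuroblastoma cell line. A peak was a member when its summit fell between the 3′ ends of 2 neighbouring coding genes that point towards each other from opposite strands, with the ends overlapping or at most 1 kb apart, in a window widened by 200 bp on each side. By this rule 3521 of 200023 peaks were members (1.76%), and 3107 of them had a −log10 q of at least 5 and are described here. The choice of members used positions only, not peak heights. The study treated the cells with DMSO, or with 400 nM THZ531, a covalent inhibitor of CDK12 and CDK13, for 2 or 6 h, with 2 libraries in each of 3 groups and no genetic change in any group named in the labels. RNA was read from the poly(A) tail inwards. Peaks were called on merged reads, so the list is 1 pooled list without strand, in which the treatments cannot be told apart, the read depth is unknown and no value has a replicate error.

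When convergent genes are transcribed, each RNA polymerase runs towards the other, and the 3′ end of each messenger RNA is set by cleavage and addition of a poly(A) tail. Cleavage usually follows a hexamer, most often AATAAA, that lies a short way upstream of the cut. Where the ends of the genes overlap, the mature RNAs can hold complementary stretches. The place at which each is cut, together with splicing, sets how much sequence they share.

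The annotation held 1587 such pairs, with 3174 different genes, or 16.4% of the 19408 coding genes used. In 456 pairs the genes were apart, with a median of 363 bp between their ends. In 357 pairs they overlapped by up to 1 kb (short overlap, median 139 bp), and in 774 pairs by more (long overlap, median 5402 bp, highest 178462 bp). The outermost end of any transcript of a gene was used as its end, and with the ends of canonical transcripts there were 1226 pairs.

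The hexamers behind the calls of strand are shown for pairs in which both genes had a tall site, and for pairs fixed by name. Each line is 30 bases of GRCh38, written 5′ to 3′ on the strand of the named gene, with the hexamer in capitals. The MLX sequence is at chr17:42572670-42572699 (plus strand) and that of PSMC3IP at chr17:42572310-42572339 (minus strand). That of BCCIP is at chr10:125853665-125853694 (plus) and that of DHX32 at chr10:125836340-125836369 (minus). That of CCNK is at chr14:99511484-99511513 (plus) and that of CCDC85C at chr14:99512031-99512060 (minus). That of ERCC1 is at chr19:45409617-45409646 (minus), that of TYMS at chr18:673555-673584 (plus) and that of MSH6 at chr2:47793607-47793636 (plus).
MLX: tataaaattaaattatAATAAAtattgcca
PSMC3IP: tttagaaaAATAAAaaatttccaatatgta
BCCIP: aaaatactATTAAAgatgactatcaccttt
DHX32: ttaatctgAATAAAgtctgagtttttcagt
CCNK: cagttatccaAATAAAagcagttctgaaac
CCDC85C: taAATAAAggcctctttgtgagcctcctgg
ERCC1: tgtaatAATAAAtcgtcctcccaggccagg
TYMS: ATTAAAgaactctccttaagtaaacatgtg
MSH6: aaaaataAATAAAtaaataaataaataaaa
The MSH6 line is a simple repeat in an intron, in which the hexamer recurs, and up to 18 of 25 bases downstream of its peak were A.

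At least 1 peak was present in 85.5% of the pairs (1357 of 1587, 95% Wilson interval 83.7 to 87.2). Of these, 650 had 1 peak, 354 had 2 and 154 had 3, and 15 pairs had more than 10. Intervals on shares cover counting error only. Peaks were packed closest in the short overlaps, at 1.49 per kb of window, against 1.28 per kb between genes that were apart and 0.229 per kb in long overlaps.

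The annotated ends of convergent genes were compared with solitary ends, meaning 8135 ends of coding genes with no other gene on either strand from 200 bp before to 5000 bp past the end. A peak had its summit within 200 bp of 44% of solitary ends (42.9 to 45.1), of 59.3% of ends of genes that were apart (56.1 to 62.5) and of 73.2% of ends in short overlaps (69.9 to 76.4). The differences from solitary ends were 15.3 percentage points (95% Newcombe interval 11.9 to 18.6) and 29.3 points (25.7 to 32.6). In short overlaps, and in many pairs of genes that were apart (lower quartile of the gap 165 bp), the ends lie so close that 1 peak can count for both. The ends of long overlaps had a peak in 41.7% (39.2 to 44.1), and the interval of their difference from solitary ends, -4.99 to 0.369 points, included 0. Genes with solitary ends need not be transcribed at the same level, and the part of expression in these differences was not tested.

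Heights are given as reads at the summit, recovered from the fold enrichment and p-value of the peak caller. Members had a median of 21 reads (quartiles 14 and 31, range 7 to 123). The median was 25 reads between genes that were apart, 29 in short overlaps and 19 in long overlaps, beside 20 at solitary ends. The deposited fold enrichment, which sets these reads against the local background, had another order, with its highest median at solitary ends. It was 9.71-fold there, 7.98-fold between genes that were apart, 9.32-fold in short overlaps and 6.84-fold in long overlaps. Peaks with at least 50 reads made up 19% of members in short overlaps (15.3 to 23.4) and 4.40% at solitary ends (3.78 to 5.13), a difference of 14.6 points (10.8 to 19.1). For genes that were apart the difference was 4.91 points (2.52 to 7.90), and in long overlaps it was -0.125 points (-1.17 to 0.981).

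Short overlaps also had the highest share of wide peaks. A width of 200 bp or more was found in 43.4% of them (38.4 to 48.6), against 26.0% at solitary ends (24.6 to 27.5), a difference of 17.4 points (12.1 to 22.8). The intervals of the difference included 0 for genes that were apart (-5.90 to 2.23 points) and for long overlaps (-2.38 to 2.23 points).

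**Figure D1:**
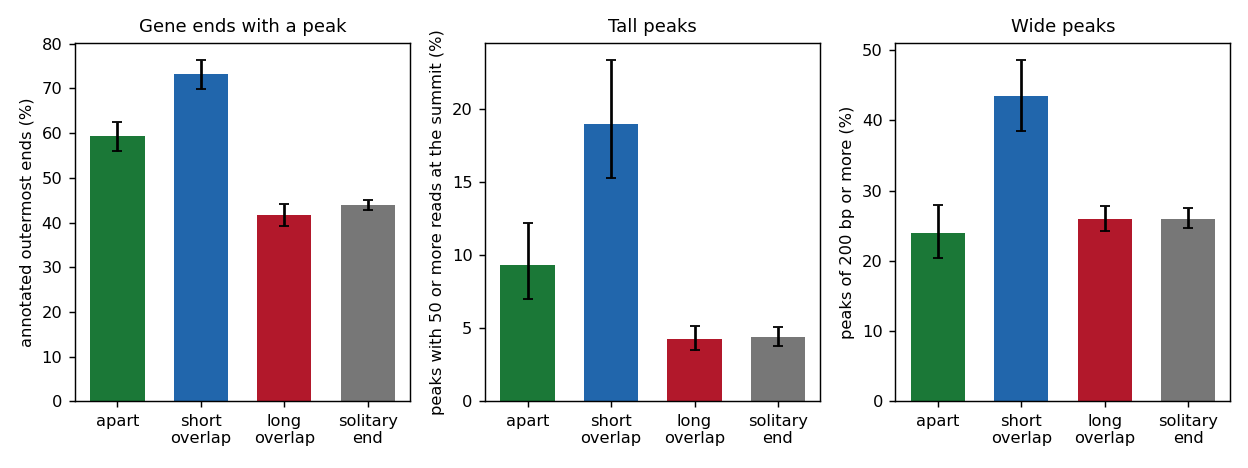
Shares, in percent, for convergent genes that were apart, in short overlap (up to 1 kb) and in long overlap, and for solitary ends. The panels give annotated ends with a peak within 200 bp, peaks with 50 or more reads at the summit and peaks of 200 bp or more; bars are shares and lines are 95% Wilson intervals. Short overlaps stand highest in all 3 panels, at 73.2%, 19% and 43.4%.

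The 5 members with more than 100 reads were looked up after their values were seen. The tallest, with 123 reads, lay at chr11:72238888-72239199 between INPPL1, an inositol phosphatase, and PHOX2A, a transcription factor of the sympathetic lineage from which neuroblastoma arises, whose annotated ends overlap by 71 bp. The next had 110 reads and lay between the chaperone gene HSP90AB1 and the solute carrier gene SLC35B2, 207 bp apart. The others had 106 reads between ACAT2 and TCP1, 103 between TMUB2 and ATXN7L3 and 101 between PCBP2 and MAP3K12. Neither clue to the strand, described next, gave 1 strand for 4 of these peaks, and the TMUB2/ATXN7L3 peak was given the plus strand. All 5 were wide, from 312 bp to 877 bp. No peak at solitary ends had more than 100 reads, and the highest there had 88. Over all 138272 peaks with a −log10 q of at least 5, more than 100 reads were found in 25 (0.0181%), with 189 the highest. Among members the share was 0.161% (5 of 3107). Such heights are thus not particular to convergent genes. Were each position counted once per strand, 1 strand could give at most 100 reads, the smallest peak width in the list. How repeated reads were counted is not known, and the part of a list without strand in the contrast with solitary ends was not tested. Under such a count the single strand given to the TMUB2/ATXN7L3 peak, with 103 reads, would also be in doubt.

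The strand of a peak was read from 2 clues. A transcript of the plus strand ends at the right edge of its peak and one of the minus strand at the left edge, so AATAAA or ATTAAA was looked for from 10 to 35 bp before each edge, and an annotated transcript end of the gene of that strand within 50 bp of it. At solitary ends, where the strand is known, the hexamer stood in that place on the strand of the gene in 72.7% of peaks (71.2 to 74.1) and on the other strand in 7.13% (6.34 to 8.02). Where it stood on 1 strand only, that was the strand of the gene in 97.6% (2413 of 2473). This accuracy was not measured for peaks away from gene ends, such as those in introns. Among members for which each clue named 1 strand, they named the same strand in 96.3% (764 of 793).

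AATAAA piled up before both edges of the members. On the plus strand it started most often 24 bp before the right edge (1.83% of peaks) and on the minus strand 21 bp before the left edge (1.96%). At solitary ends the strand of the gene gave its highest share at 22 bp (5.99%), and the other strand did not pass 0.418% at any position.

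**Figure D2:**
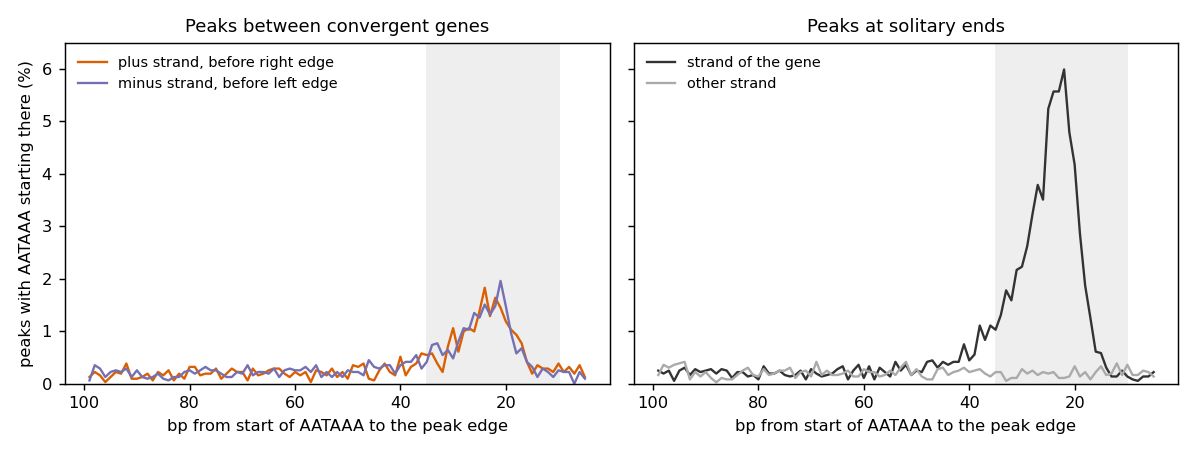
Percent of peaks in which AATAAA starts at each distance, in bp, before the peak edge, for the 3107 members (left) and the 3588 peaks at solitary ends (right), with the span used as a clue shaded. Members show a rise on both strands, to 1.83% and 1.96%, and solitary ends show it only on the strand of the gene, to 5.99%.

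By these clues 854 members were given the plus strand and 858 the minus strand, together 55.1% (53.3 to 56.8). A further 229 (7.37%) carried clues for both strands and 1166 (37.5%) carried none. Genes that were apart had the largest share given a strand, 76.2% (72.2 to 79.8), against 51% in short overlaps and 51.3% in long overlaps. Peaks without a clue had a median width of 159 bp, beside 122 bp for plus and 118 bp for minus peaks.

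A hexamer in the clue position on either strand was found for 45.3% of members, against 74.4% at solitary ends, a difference of -29.1 points (-31.3 to -26.8). With all 12 hexamers of the study in the 100 bp before each edge, 45.7% of members had one on each strand (43.9 to 47.4), against 60.9% of peaks at solitary ends (59.3 to 62.5). In this wide window the other strand of solitary ends alone held a hexamer in 63.4% of peaks.

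A peak that carries clues for both strands may hold a minus site at its left edge and a plus site at its right edge. If both are used, the transcripts share its whole width. Such clues do not by themselves show 2 sites. The hexamer stood before both edges in 5.46% of solitary peaks (4.77 to 6.25) and in 3.73% of members (3.12 to 4.46). Peaks with clues for both strands numbered 63 in short overlaps, 17.6% of members there (14.0 to 21.9). The share was 3.52% between genes that were apart (2.21 to 5.56) and 6.57% in long overlaps (5.62 to 7.67). In short overlaps 54 of the 63 had an annotated end of each gene at the matching edge, and their median width was 147 bp (100 to 318 bp). Between genes that were apart 0 of 17 did. That count is all but fixed in advance. Their ends do not overlap, each edge must lie within 50 bp of its end, and no peak is narrower than 100 bp. The higher share of peaks with clues for both strands in short overlaps is therefore in part built in.

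A site was given to each gene in 244 pairs (15.4%), and to 1 gene in 787. The tallest member given to each gene was used to ask whether the transcripts overlap in the genome. Taller sites of a gene outside the window were not considered, so the shares hold for pairs with both sites inside it. Shared bases were counted along the genome with introns included, so spliced RNAs can share fewer. In the 80 pairs of genes that were apart, neither the tallest nor the farthest sites crossed. For counting error, 0 of 80 allows a share of up to 3.75% by the limit of 3 counts, and the Wilson interval reaches 4.58%. The 17 peaks there with clues for both strands are outside this count. The plus site lay a median of 0 bp and the minus site 0.5 bp past the annotated end, and in 73 of the 80 pairs both were within 50 bp of the outermost ends. The annotated end was itself a clue, so this nearness is in part built in. The lack of crossing is in part built in too, since the annotated ends of these genes do not overlap. Summits more than 200 bp inside either gene were not members. The count of 0 therefore cannot speak to sites beyond the windows.

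In overlapping pairs the sites crossed in 128 of 164 (78.0%, 71.1 to 83.7), and the farthest sites of each gene crossed in 148 (90.2%). In the long overlaps they crossed in 118 of 153 pairs (77.1%, 69.9 to 83.1). Along the genome, introns included, the shared stretch had a median of 3535 bp and reached 47913 bp. It was a median of 4052 bp less than the annotated overlap. In 35 long overlaps the tallest sites faced each other with bases between them (median 2797 bp). Both tallest sites were at the outermost ends in 19 of the 153 pairs. In short overlaps only 11 pairs had a separate site for each gene, and 10 of them crossed, by 390 to 943 bp. Sites that cross by fewer bases can join in 1 peak, and such peaks are not in this count. Crossing in overlapping pairs is in part built in as well. Their window is the annotated overlap widened by 200 bp, an annotated end was a clue, and sites further upstream were not members. Over all pairs with a site for each gene, sites crossed in 52.5%, and in 31.2% with canonical transcript ends.

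**Figure D3:**
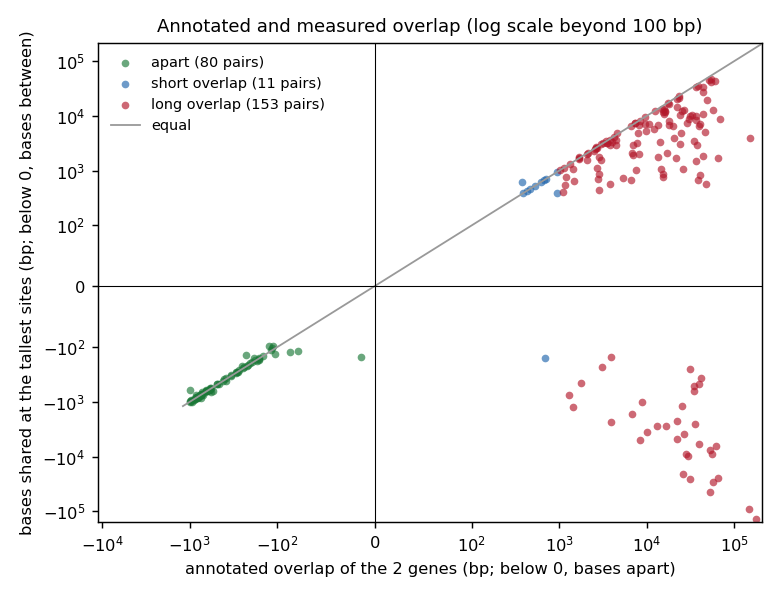
Bases of the genome shared, introns included, at the tallest member given to each gene (vertical, bp) against the annotated overlap of the genes (horizontal, bp). There is 1 point per pair for 244 pairs, with values below 0 meaning bases between and log scales beyond 100 bp. Genes that were apart lie near the line of equality, and most long overlaps lie on or below it, with 9 of 153 above it and 35 below 0.

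The taller site of a pair exceeded the other by a median of 1.32 times in genes that were apart and 1.5 times in long overlaps, and by over 2 times in 12 of 80 and 37 of 153 pairs. The rank correlation of the 2 heights was 0.342 over 80 pairs and 0.234 over 153, as a description of pairs that share libraries and region.

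**Figure D4:**
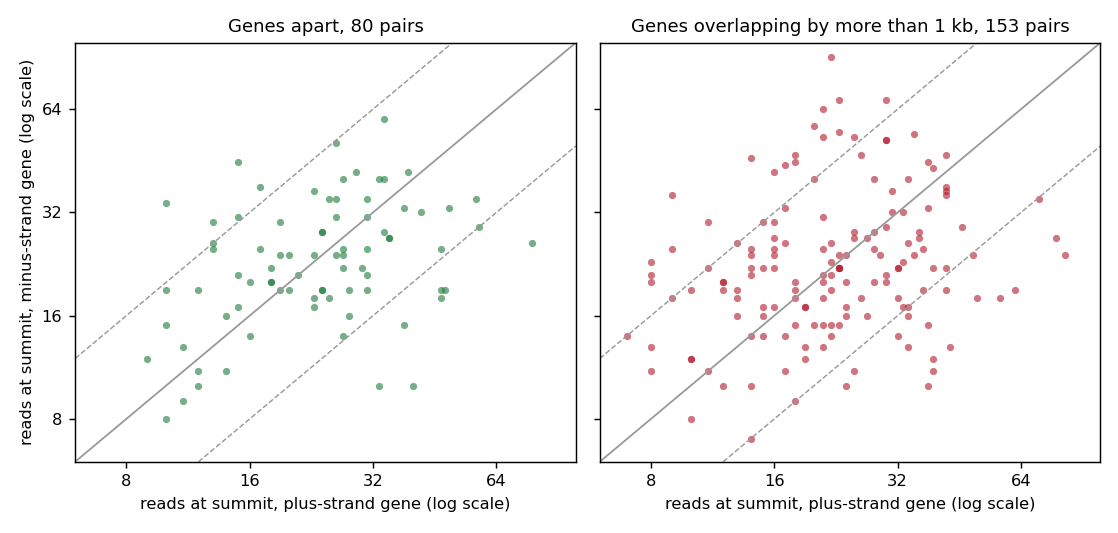
Reads at the summit of the tallest site of the plus-strand gene (horizontal) and of the minus-strand gene (vertical) on log scales, 1 point per pair, for 80 pairs of genes that were apart and 153 in long overlap. The solid line marks equal heights and the dashed lines a difference of 2 times, which 12 and 37 pairs exceed.

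The 8 pairs in which both genes had the tallest sites included 6 long overlaps, and the tallest sites crossed in 5. MLX, a transcription factor that partners glucose-sensing factors, and PSMC3IP, a cofactor of meiotic recombination, overlap by 930 bp on chromosome 17. The MLX peak (chr17:42572583-42572699) had 52 reads and the PSMC3IP peak (chr17:42572310-42572419) had 46. Their sites shared 390 bp, so the minus-strand peak lay upstream of the plus-strand peak in the genome, and the outermost MLX end had no peak.

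HACD3, an enzyme of very long chain fatty acid synthesis, and INTS14, a subunit of the Integrator complex, were the only genes of the 8 pairs that were apart. Their ends lie 403 bp from each other on chromosome 15. The HACD3 peak had 39 reads and the INTS14 peak 42, with 391 bp between the sites. Both strands were given by annotated ends alone.

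BCCIP, which binds BRCA2, and DHX32, of the DEAH-box helicase family, used sites 3 bp or less from their annotated ends in the genome. Their transcripts shared a genomic span of 17355 bp, which includes introns of both genes. Their peaks had 42 and 38 reads. BCCIP had another site with 30 reads at an annotated end further upstream (chr10:125842679-125842812).

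CCNK encodes cyclin K, the partner of CDK12 and CDK13, and overlaps CCDC85C by 34855 bp on chromosome 14. Their tallest sites did not cross. The CCNK peak had 39 reads, the CCDC85C peak 43, and 517 bp lay between the sites. The outermost CCDC85C end had a lower peak with 17 reads, and the farthest sites given to these genes shared 12282 bp.

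**Figure D5:**
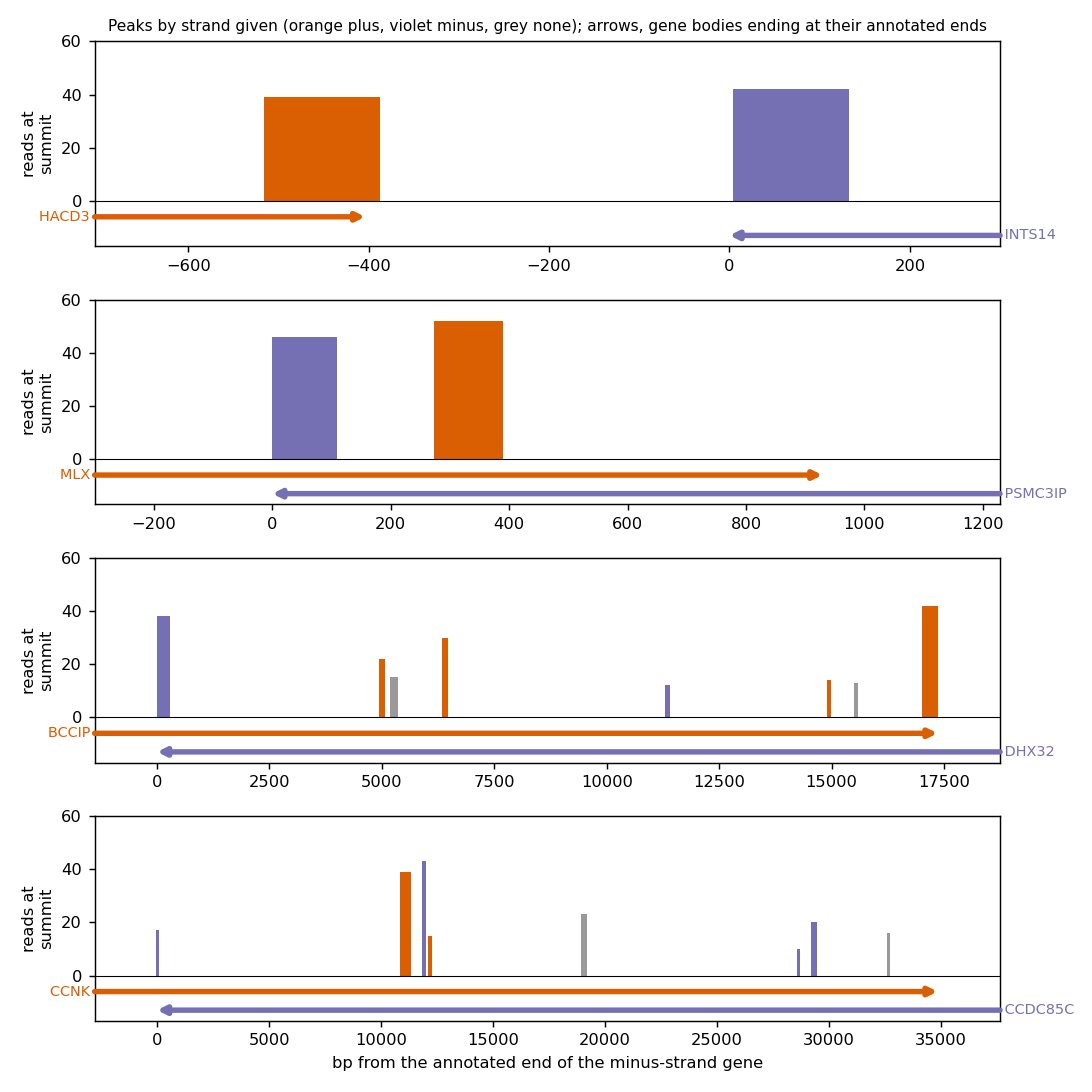
Member peaks of 4 pairs, with height as reads at the summit and position in bp from the annotated end of the minus-strand gene; orange peaks were given the plus strand, violet the minus strand and grey none, and arrows are gene bodies up to their annotated ends. In HACD3/INTS14 and CCNK/CCDC85C the tallest sites face each other, and in MLX/PSMC3IP and BCCIP/DHX32 they cross.

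Of the other 4, the ribosomal protein gene RPL36A (38 reads) and GLA, which encodes alpha-galactosidase A (45 reads), shared 877 bp. The GLA peak lay in an intron of GLA and its strand rested on the hexamer alone. It also lay in an exon of RPL36A. Its right edge was 69 bp from an annotated RPL36A end, and its left edge 1485 bp from the nearest GLA end. Whether this peak is a site of RPL36A instead was not tested, and the crossing of this pair rests on it. RPL36A has near-identical copies in the genome, so the reads of that gene are uncertain. APPL1, an endosomal adaptor (42 reads), and ASB14 (37 reads) shared 5189 bp. Both strands were given by annotated ends alone, and the ASB14 peak lay in exons of both genes. ZC3H14, a poly(A)-binding protein (42 reads), and EML5 (36 reads) shared 749 bp. The strand of that EML5 peak rested on the hexamer alone. A peak with 42 reads at another annotated EML5 end carried clues for both strands and was not used. It starts past the ZC3H14 site, so with it as the EML5 site the pair would not cross. The tallest sites of FAM149B1 (42 reads) and the J-protein gene DNAJC9 (47 reads) did not cross, with 6483 bp between them, and the farthest sites given to these genes shared 3208 bp.

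None of the 6 pairs fixed by name, textbook overlaps or holders of a DNA damage response gene, had a site given to each gene. THRA, the thyroid hormone receptor alpha, had both peaks of its pair, with 30 and 20 reads, each at an annotated THRA end, and the circadian repressor NR1D1 had none. The peak with 30 reads (chr17:40092886-40093015) lay in exons of both genes. FGF2, a growth factor, had a site with 14 reads at its distal end, and a peak with 19 reads carried no clue. No site was given to NUDT6, long known as its antisense partner. TYMS, thymidylate synthase, had the only peak of its pair with ENOSF1, with 51 reads and 489 bp wide.

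ERCC1, a subunit of the nucleotide excision repair nuclease, had a site with 39 reads, while peaks with 19 and 31 reads in the pair carried no clue and POLR1G, an RNA polymerase I subunit, was given none. MSH6, a mismatch repair gene, was given sites with 34 and 19 reads, of which the lower is the repeat shown above. The tallest of the 7 peaks in its overlap with FBXO11 had 40 reads and no clue.

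The longest stretches of genome shared at the tallest sites of both genes, introns included, rested on low peaks. With the farthest sites the order was different, and the longest stretch was 163398 bp in ATP1B1/NME7. Both of its peaks had 7 reads, the lowest of any member, lay in introns of both genes and had a strand from the hexamer alone. TCHP and GIT2 shared 47913 bp (13 and 26 reads), ADAMTSL1 and SAXO1 44344 bp (18 and 9 reads), and ATM, the DNA damage checkpoint kinase, and C11orf65 42805 bp (10 and 8 reads). The strand of TCHP, ADAMTSL1, SAXO1 and C11orf65 rested on the hexamer alone, which stood on the wrong strand at 7.13% of solitary peaks. That rate is from gene ends, where 72.7% of peaks had the hexamer on the right strand. Outside exons in long overlaps only 32.5% of peaks had it on either strand, so more of the calls there may be wrong. The ATM site lay at its annotated end and also had the hexamer.

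DNA damage response genes were followed because the study centred on them. Of the 162 entries of its list, which it drew from public databases of DNA repair genes, 148 were matched, and 47 of these were in convergent pairs (31.8%, 24.8 to 39.6), beside 16.4% of all coding genes. A site of their own was given to 22 of the 47 (46.8%), beside 40.2% of all genes in pairs. Of 798 matched genes that the study listed for premature polyadenylation in nascent RNA under THZ531, 120 were in pairs (15.0%), and 70 of these had a site of their own (58.3%, 49.4 to 66.8). These lists are described by counts and were not tested.

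The 8 pairs with a DNA damage response gene and the tallest peaks had 49 to 74 reads, and 5 of them had 1 peak only. MUS81, a structure-specific nuclease, had the highest, with 74 reads and no clue, beside EFEMP2. FANCI, a Fanconi anaemia protein, and POLG, the mitochondrial DNA polymerase, had a peak with 61 reads at annotated ends of both. The replication clamp loader gene RFC4 and EIF4A2 overlap by 18 bp and had 1 peak of 710 bp with 61 reads and no clue. MPG, a DNA glycosylase, and NPRL3 had a peak of 59 reads without a clue. EME1, the partner of MUS81, and LRRC59 had 1 peak, with 56 reads and no clue, and the recombination gene RAD54L was given the only peak beside LRRC41, with 49 reads. FANCA and ZNF276 were the only pair of the 8 with a site for each gene, with 28 and 36 reads, and their sites shared 3368 bp. The tallest peak of that pair, with 57 reads, carried clues for both strands.

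Within long overlaps peaks in and outside exons differed in height and clues. Of 2267 members there, 544 (24.0%) lay in an exon of both genes and 605 (26.7%) in introns only. Peaks outside exons, 606 with 1 that lay beyond both genes, had a median of 12 reads, and peaks in exons 22. A strand was given to 30.5% of peaks outside exons (27.0 to 34.3) and to 58.8% in exons (56.4 to 61.2). An annotated end lies in an exon, so that clue favours exons by definition. The hexamer clue alone, on either strand, was met by 32.5% of peaks outside exons (28.9 to 36.3) and by 47.3% in exons (44.9 to 49.7). At least 18 A in 25 bases lay within 50 bp downstream of 30.9% of peaks outside exons (27.3 to 34.6) and of 6.20% in exons (5.14 to 7.47). Oligo(dT) can prime on such stretches, and their part in these peaks was not tested.

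Over all members the share before an A stretch on either strand was 9.75% (8.76 to 10.8), which was 7.49 points above solitary ends (6.36 to 8.67). It was 12.8% in long overlaps, 1.45% between genes that were apart and 1.68% in short overlaps, beside 2.26% at solitary ends. Among peaks with no clue to the strand it was 20.6% (18.4 to 23).

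The 3 pairs with the most members were long overlaps filled with low peaks outside exons. BCL2L14 and LRP6, the latter a Wnt coreceptor, had 27 peaks with a median of 12 reads, 22 of them outside exons. MFSD4B and REV3L, the catalytic subunit of translesion polymerase zeta, had 26 peaks with a median of 13.5 reads, of which 21 carried no clue. ATP1B1, a subunit of the sodium pump, and NME7 had 23 peaks with a median of 9 reads, and the ATP1B1 site stood far above the rest with 57 reads.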

How the data were processed

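Poly(A) 3′ sequencing libraries (QuantSeq REV) of 6 IMR-32 samples were aligned with STAR 2.5.1b, per the submitters' processing notes, and the authors called peaks with MACS2 2.1.1 on the merged reads of all samples, as the study's methods put it. The deposited list gives each peak a fold ratio over background, a −log10 p and a −log10 q, with the summit as an offset in bp (other). It has no strand and no depth. Reads at the summit were solved from the fold and −log10 p as a Poisson tail (largest misfit 0.000172 in −log10 p, 3 to 200 reads). How repeated reads were treated is not given in the sources used here, and counting each position once would hold down tall peaks.

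Coordinates are GRCh38. Genes were taken from Gencode 44, which is not the release the study used. The 625 coding genes with only readthrough transcripts were left out, and a pair held no other coding gene between its ends. No peak passed a chromosome end. Pairs were named by rule: the 8 with the highest lower site, 6 fixed pairs, the 3 longest crossings of tallest sites, up to 8 with a DNA damage response gene and the tallest peaks, and the 3 with most members. Of these, 2 pairs are counted but not reported here by name. The members, lists and rules were chosen with earlier results of these data known, and the limit of 50 reads for tall peaks after the peaks were seen. Shares have Wilson intervals and differences Newcombe intervals (95%), with no p-values, since peaks are not replicates. Scripts used numpy 2.4.6, scipy 1.17.1, pandas 2.3.3 and pysam 0.24.0 and were tested on simulated data.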

Additional observations from a re-analysis of the deposited data

How the results depend on the processing

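The 3107 members became 779 with a −log10 q of at least 20 and 1611 with canonical transcript ends. Pairs with a peak (85.5%) were 88.0% with no cutoff, 42.5% at the stricter cutoff, 58.2% without the extension of 200 bp and 87.5% when any overlap of a peak with the window counted. The median of 21 reads was 19 with no cutoff, 39 at the stricter cutoff and 26 with canonical ends. In the deposited unit the median was a 7.26-fold enrichment. Wide peaks (27.6%) were 49.4% at the stricter cutoff, 33.6% with canonical ends and 10.6% with a limit of 300 bp. Peaks with a hexamer on each strand (45.7%) were 43.5% with no cutoff, 53.9% at the stricter cutoff and 16.4% with AATAAA and ATTAAA only.

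Peaks given a strand (55.1%) were 52.6% with no cutoff, 57.1% at the stricter cutoff, 51.6% without extension, 53.2% with a gap of at most 500 bp, 61.8% with canonical ends, 41.6% by the hexamer alone and 43.4% by annotated ends alone. Sites that crossed, over all pairs with a site for each gene (52.5%), were 46.2% at the stricter cutoff (6 of 13 pairs), 80.8% without extension, 63.7% with a gap of at most 500 bp, 31.2% with canonical ends and 43.6% by annotated ends alone. Peaks before an A stretch (9.75%) were 10.9% with no cutoff, 2.18% at the stricter cutoff, 11.9% without extension, 3.04% with canonical ends and 2.35% with at least 22 A.

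Leaving out the pairs that overlap by more than 1 kb, an alternative chosen after seeing the data, gave 840 members, 81.2% of pairs with a peak, a median of 26 reads, 32.3% wide peaks, 65.5% given a strand, 11.0% of pairs with crossing sites and 1.55% before an A stretch. The cause of these changes was not tested, beyond the fewer pairs or peaks that a setting keeps by construction. No paired analysis was possible because no peak has a value per library, and for the same reason no replicate could be left out. The unknown depth limits every share to the sites that were deep enough to be called.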
